A study of Mus musculus with 24 samples.

Results

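The 4 subunits of succinate dehydrogenase, encoded by Sdha, Sdhb, Sdhc and Sdhd, were followed in mouse brown and white fat cells grown in primary culture. Members were all probe sets whose single annotated gene symbol is one of these 4 names. This gave 4 probe sets, 1 per gene, among the 12488 on the array, and all 4 entered the test among 6281 genes. They were 94080_at for Sdha, 95053_s_at for Sdhb, 94216_at for Sdhc and 92574_at for Sdhd. The suffix of the Sdhb probe set marks a design that may also bind related transcripts.

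The study set white and brown cells against each other before and after they mature into fat cells, on 24 Affymetrix arrays with 1 array per sample. Total RNA was taken from brown cells at day 4 of culture (n = 5) and at day 7 (n = 5), and from white cells at day 4 (n = 8) and at day 7 (n = 6). The labels call day 4 not differentiated and day 7 differentiated, and the sources used here give no genotype, strain, sex, age, depot or differentiation agents. The labels do not state if arrays within a group are separate animals or separate cultures. P-values therefore cover the variation seen among these arrays only, and some or all of it may be technical.

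Succinate dehydrogenase is complex II of the respiratory chain and at the same time an enzyme of the TCA cycle. It oxidises succinate to fumarate in the mitochondrial matrix and passes the electrons through a flavin, iron-sulfur clusters and a membrane anchor to ubiquinone, without pumping protons. All its subunits are encoded in the nucleus. Brown fat cells carry many mitochondria and burn fuel for heat, and succinate is among the substrates known to drive respiration there.

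Promoter sequences are shown because subunits of 1 complex are read out here at the transcript level, and motifs of factors that control mitochondrial genes can be looked for in them. RefSeq tables of build GRCm38.p6 hold a promoter for 3 of the 4 genes. For Sdha the 250 bases before the annotated start lie at chr13:74350241-74350490 on the minus strand, for Sdhb at chr4:140961021-140961270 on the plus strand, and for Sdhd at chr9:50603850-50604099 on the minus strand. Sdhc is named only. Each is written 5′ to 3′ on the gene's own strand, and capitals mark the core NRF-1 motif GCGCANGCG and the ETS motif CCGGAAG of the GABPA type on either strand.
Sdha: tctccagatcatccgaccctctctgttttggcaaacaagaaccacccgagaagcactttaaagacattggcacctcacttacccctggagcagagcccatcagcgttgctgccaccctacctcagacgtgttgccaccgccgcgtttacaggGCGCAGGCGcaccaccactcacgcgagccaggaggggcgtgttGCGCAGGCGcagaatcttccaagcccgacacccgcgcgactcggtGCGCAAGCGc
Sdhb: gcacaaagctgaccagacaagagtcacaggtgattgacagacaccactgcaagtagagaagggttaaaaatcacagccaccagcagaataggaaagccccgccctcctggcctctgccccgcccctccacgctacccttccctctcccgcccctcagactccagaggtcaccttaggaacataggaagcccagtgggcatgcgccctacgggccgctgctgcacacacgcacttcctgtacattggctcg
Sdhd: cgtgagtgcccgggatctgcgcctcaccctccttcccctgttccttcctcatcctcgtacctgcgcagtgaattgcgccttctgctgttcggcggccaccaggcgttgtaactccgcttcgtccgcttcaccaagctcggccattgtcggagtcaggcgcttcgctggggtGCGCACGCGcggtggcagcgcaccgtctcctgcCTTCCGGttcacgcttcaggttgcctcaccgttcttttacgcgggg
In the window from 250 bases before to 50 after the start, searched on both strands, Sdha held 3 NRF-1 cores, at 98, 55 and 10 bases before the start. Sdhd held 1 NRF-1 core at 79 bases and 1 ETS motif at 46 bases before the start. Sdhb held no NRF-1 core in this window and 1 ETS motif that starts 7 bases past the start, beyond the printed stretch. The NRF-1 core occurred in 6.25% of 32851 RefSeq promoter windows of the same 300 bases and the ETS motif in 8.86%. The GC box GGGCGG was present at 3 places in Sdhb and 1 in Sdhd, and in 35.7% of all windows. The oestrogen-related receptor motif CAAGGTCA was found once, in Sdhd, against 1.56% of all windows, and the YY1 motif AAGATGG in none of the 3 genes, against 6.34%. No matches overlapped one another. These matches are letters in a window, and no binding was measured here.

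Across the arrays, the median signal ran from 41.9 to 59.0, and the number of arrays limits the precision. RNA integrity was read from Gapdh, as the signal of its 3' probe set over that of its 5' probe set, a ratio that is higher in degraded RNA. It was 1.09 to 1.54 on the white day 7 arrays. By contrast it was 0.769 to 0.999 at brown day 4, 0.854 to 0.942 at brown day 7 and 0.841 to 1.1 at white day 4. RNA integrity and the white day 7 group thus largely cannot be told apart, also in fits that hold this ratio. Among 8 brown fat markers, the summed signal ran from 1264 to 7124 at brown day 7 and from 370 to 822 at white day 7. Ucp1, the heat-making uncoupling protein, had a median signal of 53.1 at brown day 7 and 8.71 at white day 7, and lay below the floor of 8.21 on 12 of the 24 arrays. Not every brown fat marker was higher in brown cells. Dio2, which activates thyroid hormone, had medians of 13.3 at brown day 7 and 20.3 at white day 7, and Elovl3, a fatty acid elongase, had 2.43 and 4.66, both below the floor. The summed signal of 6 white fat markers overlapped between the cell types at day 7, at 595.5 to 902.7 in brown and 755.7 to 1067 in white cells. Within it, Tcf21, Wt1, Hoxc8 and Hoxc9 were higher in white cells at day 7 without overlap. Their medians were 290.3, 85.86, 161.9 and 91.82 in white and 8.80, 17.07, 50.11 and 25.37 in brown cells. Nnat went the other way, at a median of 312.8 in brown and 29.9 in white cells, and Lep overlapped, at 320.5 and 263.6. Zic1, a brown lineage factor, was 58.5 to 119 at brown day 4 and at most 4.72 on any white array. The summed signal of 6 adipocyte markers was 2445 on white day 4 array 51 and 3774 on array 45, against 4645 to 8057 on the other white day 4 arrays. In the labels, the brown arrays carry lower numbers than the white arrays, so handling and cell type cannot be told apart. In such bulk samples, fewer cells of a type and less RNA per cell cannot be told apart either.

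Sdha encodes the flavoprotein that binds FAD and oxidises succinate. Its signal rose 2.08-fold from day 4 to day 7 in brown cells. In white cells it was 1.83-fold higher at day 7 (log2 0.87). With the Gapdh ratio in the fit the log2 change was 0.40 and the call was lost (limma adjusted p = 0.728). That ratio was higher at white day 7, so RNA integrity and the day largely cannot be told apart in white cells. Sdhb, Sdhc and Sdhd did not pass the test between the days in either cell type, although Sdhb and Sdhd passed in brown cells with runs of array numbers as a block. All 4 subunits were higher in brown than in white cells at day 7, from 1.62-fold for Sdhc to 2.85-fold for Sdhd, and Sdhb, Sdhc and Sdhd already at day 4. With the Gapdh ratio in the fit, the day 7 calls of Sdhb (narrowly) and Sdhd held and those of Sdha and Sdhc did not. The log2 differences of Sdha and Sdhc were not smaller in that fit. With the matching ratio of Actb instead, the Sdhc call at day 7 was lost with a smaller difference.

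**Figure D1:**
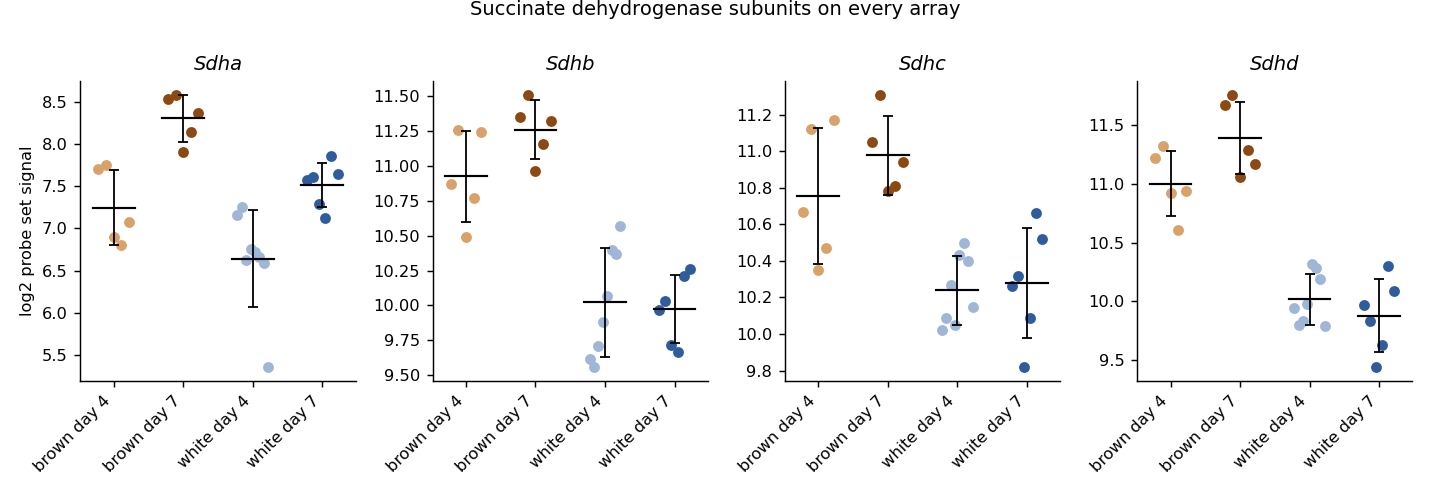
Log2 probe set signal of each subunit on every array (points), by group, with the group mean (line) and SD (bar). Sdha lies higher at day 7 than at day 4 in both cell types, apart from an overlap in white cells, while the other 3 subunits separate mainly brown from white arrays.

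The signals of Sdha at brown day 4 were 208.2, 216, 119, 112.4 and 135.1 on arrays 5, 6, 9, 10 and 19. At brown day 7 they were 369, 381.9, 240.6, 282.7 and 330.1 on arrays 7, 8, 11, 12 and 22. Every brown day 7 array lay above every brown day 4 array, which held for 4.41% of the 8397 probe sets tested. On the log2 scale the change was 1.06 ± 0.257 (SE; 95% interval 0.53 to 1.58; limma adjusted p = 0.00691). Sdha was the 1 member of 4 called higher at brown day 7, a direction called for 6.0% of all probe sets.

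In white cells Sdha ran from 41.01 over a median of 103.6 to 153.8 at day 4, and from 140.3 over 193.1 to 232.7 at day 7. The groups overlapped between 140.3 and 153.8, where day 4 arrays 33 and 34 lay above the lowest day 7 array, 40. The log2 change was 0.87 ± 0.219 (SE; 95% interval 0.42 to 1.32; limma adjusted p = 0.00675). Again Sdha was the 1 member of 4 called higher, against 8.36% of all probe sets, and none of the 4 was without overlap, against 2.23%. Array 51, the lowest of white day 4, had an Sdha signal of 41.01, and without arrays 45 and 51 the change was 0.65 (adjusted p = 0.0178). With the Gapdh 3' over 5' ratio as a covariate it was 0.40 ± 0.361 (limma adjusted p = 0.728), and the call in white cells was lost. That ratio was higher on the white day 7 arrays than on nearly all white day 4 arrays. RNA integrity and the day therefore largely cannot be told apart in white cells by this fit. In brown cells, where the ratio was alike on both days, the same covariate left the change at 1.05 (adjusted p = 0.00624). Markers of the fat cell state moved with the day. The summed signal of 6 adipocyte markers on the array, of 8 listed, was 5975 to 11030 at brown day 4 and 9663 to 12050 at brown day 7, and 2445 to 8057 at white day 4 and 7601 to 11770 at white day 7. That of 7 proliferation genes went from 4093 to 5611 at brown day 4 down to 1506 to 2622 at brown day 7, and from 1621 to 3789 down to 829.3 to 1766 in white cells. In brown cells the striated muscle sum also went from 2204 to 3403 at day 4 down to 1390 to 1952 at day 7, and the macrophage sum from 417.2 to 505 up to 549.7 to 679.4. Within the striated muscle sum Mb went the other way in brown cells, from a median of 17.26 to 65.39, with smaller rises of Ckm and Tnnc2. The part of these markers in the change of Sdha was not tested.

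Sdhb encodes the iron-sulfur subunit, which carries electrons from the flavin towards ubiquinone. Its signals at brown day 4 were 1869, 2456, 1436, 1746 and 2425 on arrays 5, 6, 9, 10 and 19, and at brown day 7 they were 2606, 2926, 1996, 2290 and 2553 on arrays 7, 8, 11, 12 and 22. White day 4 arrays ran from 754.5 over a median of 1011 to 1522, and white day 7 arrays from 814 over 1022 to 1228. The brown values of both days overlapped, as did the white values. The log2 change to day 7 was 0.33 ± 0.187 (SE) in brown cells (95% interval -0.05 to 0.72; limma adjusted p = 0.275) and -0.05 ± 0.160 in white cells (interval -0.38 to 0.28; adjusted p = 0.871).

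Sdhc encodes a membrane anchor subunit that helps to hold a heme and the ubiquinone site. Brown day 4 signals were 1635, 2230, 1305, 1423 and 2304 on arrays 5, 6, 9, 10 and 19, and brown day 7 signals 2123, 2532, 1756, 1799 and 1963 on arrays 7, 8, 11, 12 and 22. White day 4 ran from 1040 over a median of 1184 to 1446, and white day 7 from 903.4 over 1251 to 1618. The days overlapped in both cell types. The log2 change was 0.22 ± 0.164 in brown cells (95% interval -0.12 to 0.56; limma adjusted p = 0.440) and 0.04 ± 0.140 in white cells (interval -0.25 to 0.33; adjusted p = 0.872).

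Sdhd encodes the other membrane anchor subunit. At brown day 4 it was 2380, 2553, 1937, 1564 and 1963 on arrays 5, 6, 9, 10 and 19, and at brown day 7 it was 3250, 3476, 2132, 2501 and 2301 on arrays 7, 8, 11, 12 and 22. White day 4 signals ran from 882.4 over a median of 996.9 to 1279, and white day 7 signals from 692.6 over 956.4 to 1259. Brown day 7 arrays 11, 12 and 22 fell within the range of brown day 4, and arrays 7 and 8 lay above it. The log2 change was 0.39 ± 0.168 in brown cells (95% interval 0.04 to 0.73; limma adjusted p = 0.141) and -0.14 ± 0.144 in white cells (interval -0.43 to 0.16; adjusted p = 0.542). Over the 4 members the median log2 change was 0.36 in brown and -0.00 in white cells, against 0.02 over all genes in each.

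**Figure D2:**
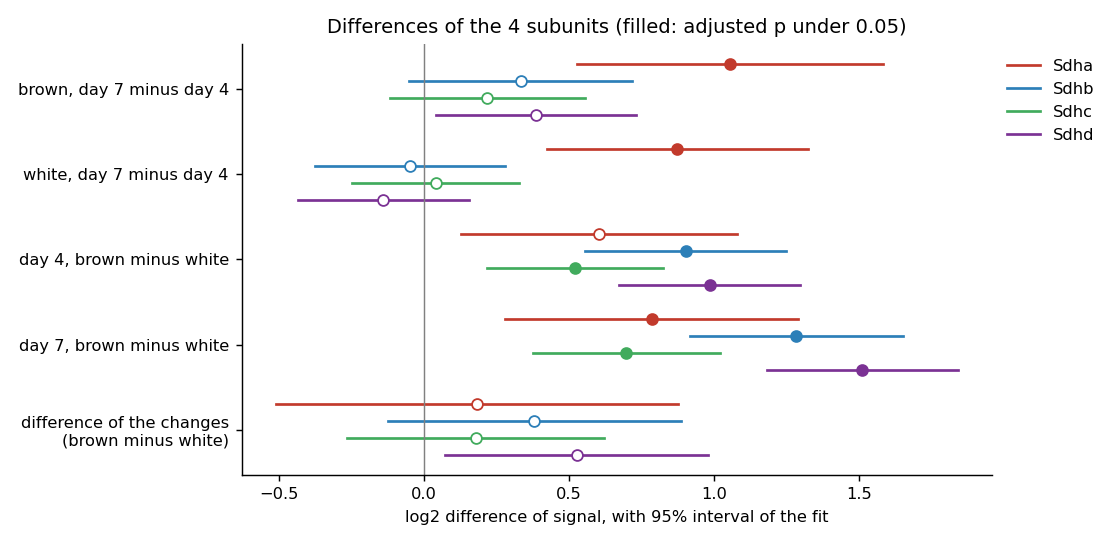
Log2 difference of signal for each subunit in each comparison (points), with the 95% interval of the fit (line), filled where the limma adjusted p was under 0.05. Filled points are Sdha for day 7 against day 4 in both cell types, the other 3 subunits for brown against white at day 4, and all 4 at day 7.

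Between the cell types at day 4, Sdhd was 1.98-fold higher in brown cells, a log2 difference of 0.99 ± 0.151 (95% interval 0.67 to 1.30; limma adjusted p = 3.08e-05). The lowest brown array, at 1564, lay above the highest white array, at 1279. Sdhb was 1.87-fold higher (log2 0.90 ± 0.169; adjusted p = 0.000313) and Sdhc 1.43-fold higher (0.52 ± 0.148; adjusted p = 0.0119), both with overlapping arrays. Sdha was at 0.60 ± 0.232 with an interval of 0.13 to 1.08 and did not pass (adjusted p = 0.0607). Its brown range of 112.4 to 216 and its white range of 41.01 to 153.8 overlapped. So 3 of 4 members were called higher in brown cells, against 10.8% of all probe sets, and 1 of 4 was without overlap, against 3.32%. The Sdhc call at day 4 was lost without brown day 4 array 6 (0.43; adjusted p = 0.0527).

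At day 7 all 4 members were called higher in brown cells, against 12.8% of all probe sets, and none overlapped, against 8.71%. Sdhd had the largest difference, at 1.51 ± 0.161 on the log2 scale (95% interval 1.18 to 1.84; limma adjusted p = 1.21e-07). Its lowest brown array was at 2132 and its highest white array at 1259. Sdhb was 2.44-fold higher (1.29 ± 0.179; adjusted p = 6.72e-06), with brown arrays from 1996 and white arrays up to 1228. Sdha was 1.73-fold higher (0.79 ± 0.246; adjusted p = 0.0198), with brown arrays from 240.6 and white arrays up to 232.7. Sdhc was 1.62-fold higher (0.70 ± 0.157; adjusted p = 0.00168), with brown arrays from 1756 and white arrays up to 1618. The median log2 difference of the 4 members was 0.75 at day 4 and 1.04 at day 7, against 0.01 and 0.00 over all genes.

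The Gapdh ratio did not overlap between brown and white arrays at day 7, so RNA integrity and cell type cannot be told apart there. Adding the ratio to the fit ended 2 of the 4 day 7 calls. With it Sdhb stood at 1.10 (limma adjusted p = 0.0495) and Sdhd at 1.67 (adjusted p = 0.00069), while Sdha stood at 1.33 (adjusted p = 0.0755) and Sdhc at 0.85 (adjusted p = 0.0879). Without it the differences were 1.29, 1.51, 0.79 and 0.70, in that order. Sdha and Sdhc thus lost their calls without a smaller difference. The Sdha call at day 7 was also lost without brown day 7 array 7 (adjusted p = 0.0525) or array 8 (adjusted p = 0.0536). Sums of muscle, macrophage, endothelial and proliferation genes differed between the cell types as well. Bulk arrays do not tell which cells express them. The summed signal of 14 striated muscle genes was 1390 to 1952 at brown day 7 and 852 to 1308 at white day 7, and 2204 to 3403 against 729 to 1153 at day 4. Within this sum at day 7, Actc1 went the other way, with medians of 429.2 in brown and 592.6 in white cells. Tnnt1 was alike, at 56.97 and 58.84. The 8 macrophage genes summed to 550 to 679 in brown and 784 to 1255 in white cells at day 7. Of these, Itgam lay below the floor on all arrays, Mrc1 on 13 and Adgre1 on 10. The 6 endothelial genes summed to 362.7 to 597.5 in brown and 88.3 to 229.3 in white cells at day 7. Of these, Cdh5 had medians of 307.8 and 61.8, while Pecam1 went the other way, at 57.8 and 83.9, and Vwf lay below the floor on 18 arrays. The 4 smooth muscle genes summed to 3155 to 5468 in brown and 5556 to 8394 in white cells at day 7. The 7 proliferation genes did not overlap at day 4, with 4093 to 5611 in brown and 1621 to 3789 in white cells. Their part in the difference was not tested.

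By mean signal the 4 groups took a different order for Sdha than for the other subunits. The Sdha probe set was weaker, above 49.59% to 87.96% of the probe sets of an array. Those of the other subunits lay above 93.53% to 98.9%. The part of signal strength in the different order was not tested. Sdha was highest in brown cells at day 7 (320.9 ± 59.23, SD, n = 5), followed by white cells at day 7 (185.9 ± 32.96, n = 6), brown cells at day 4 (158.1 ± 50, n = 5) and white cells at day 4 (106.2 ± 33.92, n = 8), and the white day 7 and brown day 4 ranges overlapped. For Sdhb the order was brown cells at day 7 (2474 ± 350.3) and at day 4 (1986 ± 443.7), then white cells at day 4 (1074 ± 292.5) and at day 7 (1019 ± 170.9). Sdhd followed the same order at 2732 ± 596, 2080 ± 392, 1046 ± 162.8 and 958.3 ± 205.1. For Sdhc brown cells at day 7 (2035 ± 313.8) came before brown cells at day 4 (1779 ± 461.4), white cells at day 7 (1265 ± 256.8) and white cells at day 4 (1217 ± 158.4). In these 3 genes the days of a cell type are neighbours in the order, and their ranges overlapped. Their differences passed no test, except those of Sdhb and Sdhd in brown cells when runs of array numbers were taken as a block.

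The day 7 against day 4 changes were also compared between the cell types, brown minus white. The difference was 0.53 ± 0.221 for Sdhd (95% interval 0.07 to 0.98; limma adjusted p = 0.519), 0.38 ± 0.246 for Sdhb (adjusted p = 0.774), 0.18 ± 0.338 for Sdha (adjusted p = 0.947) and 0.18 ± 0.216 for Sdhc (adjusted p = 0.908). By limma 0 of 4 members were called, and 1 of 4 had an unadjusted p under 0.05, which was Sdhd at 0.0245. Of all probe sets, 0.167% were called higher and 0.214% in either direction. The 5 comparisons share arrays, so their values are not independent of one another.

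Ratios within an array do not depend on its scaling and were used to see whether the subunits moved unequally. A ratio between probe sets has no meaning as a level, so only its shift between groups was read, without a test. How often ratios of other gene pairs are without overlap was not counted. The ratios were not adjusted for RNA integrity either, which differed at white day 7. In brown cells the log2 ratio of Sdha to Sdhb moved from -3.68 ± 0.39 (SD, n = 5) at day 4 to -2.96 ± 0.09 (SD, n = 5) at day 7. Against Sdhc and Sdhd the shifts were 0.84 and 0.67. For each of the 3 ratios, all brown day 7 arrays lay above all brown day 4 arrays. The 3 ratios share Sdha, whose signal alone was without overlap between the brown days, so they are not separate observations. In white cells the ratio of Sdha to Sdhd moved from -3.37 ± 0.58 (SD, n = 8) to -2.36 ± 0.14 (SD, n = 6), also without overlap. The ratio to Sdhb moved by 0.92, but its white day 4 arrays spread from -5.21 to -2.29 and took in every day 7 array. For Sdhc the shift was 0.83, with 4 of 6 day 7 arrays above all day 4 arrays.

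**Figure D3:**
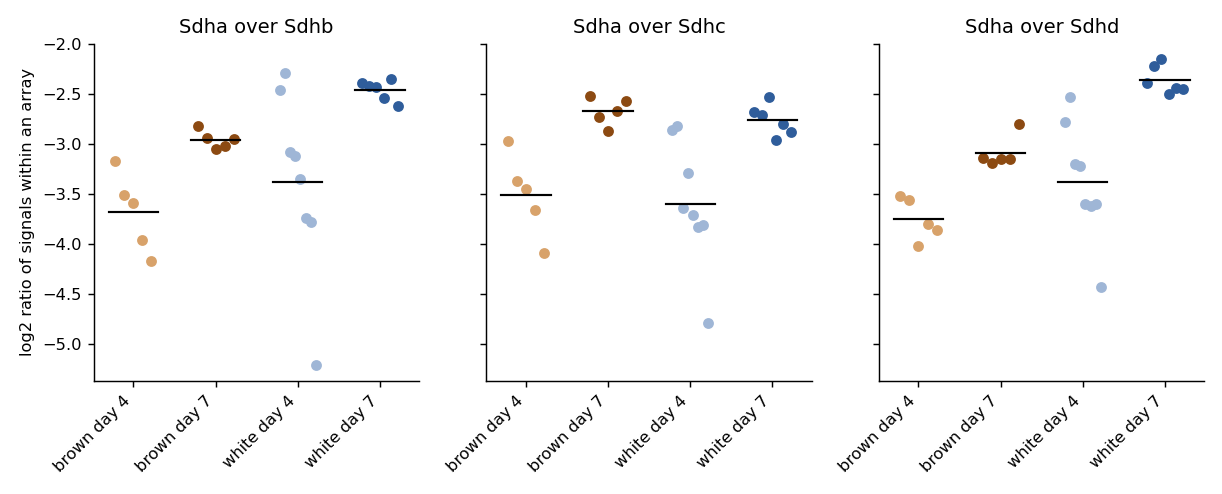
Log2 ratio of the Sdha signal to that of Sdhb, Sdhc and Sdhd within each array (points), by group, with the group mean (line). All brown day 7 arrays lie above all brown day 4 arrays in each panel, and the white day 4 arrays spread widely.

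At day 7 the brown over white difference, without a covariate, was larger for Sdhb and Sdhd than for Sdha and Sdhc, which is a description without a test. With the Gapdh ratio in the fit that order did not hold, since Sdha then stood at 1.33 and Sdhb at 1.10. The log2 ratio of Sdhb to Sdha was 0.50 higher and that of Sdhb to Sdhc 0.59 higher in brown than in white cells, both without overlap. Those of Sdhd to Sdha and to Sdhc were 0.73 and 0.81 higher, again without overlap. The ratio of Sdhd to Sdhb differed by 0.23, with 4 of 5 brown arrays above all white arrays.

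Array numbers in the labels form runs that hold both days, and the labels do not say what a run is. In brown cells the log2 change of Sdha was 0.82 in arrays 5 to 8, 1.17 in arrays 9 to 12 and 1.29 between arrays 19 and 22. In white cells it was 0.38 in arrays 33 to 36, 0.51 in arrays 37 to 40 and 1.06 in arrays 41 to 44. It was thus positive in all 6 runs. Sdhd changed by 0.45, 0.41 and 0.23 in the brown runs and by 0.03, -0.37 and -0.11 in the white runs. Sdhb was at 0.37, 0.43 and 0.07 in brown and at 0.41, -0.10 and -0.00 in white, and Sdhc at 0.28, 0.38 and -0.23 in brown and at 0.23, -0.20 and 0.13 in white. With the runs as a block, an alternative chosen after seeing the data, Sdhb and Sdhd also passed in brown cells, at 0.33 (limma adjusted p = 0.0381) and 0.39 (adjusted p = 0.00613).

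Over the 24 arrays, which share their scaling and differ in RNA integrity, the log2 signals of Sdhb, Sdhc and Sdhd ran together. Pearson's r was 0.92 for Sdhb and Sdhd, 0.91 for Sdhb and Sdhc and 0.90 for Sdhc and Sdhd. After each group's mean was taken off, these were 0.57, 0.76 and 0.77. Sdha correlated with Sdhd at 0.63 over the arrays and at 0.53 within groups, and with Sdhc at 0.61 and 0.34. With Sdhb it was 0.48 over the arrays and -0.14 within groups. That last value joined 0.53 at brown day 4, 0.97 at brown day 7 (5 arrays each) and 0.92 at white day 7 (6 arrays) with -0.78 at white day 4 (8 arrays). On white day 4 array 51 Sdha had the lowest and Sdhb the highest signal of the group, 41.01 and 1522.

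The genes outside the complex with the pattern most like each subunit were listed by Pearson's r over the 24 arrays. For Sdha they were Etfdh (0.943), which feeds electrons from fatty acid oxidation into ubiquinone, Snx10 (0.937), a sorting nexin, and Etfa (0.937), a subunit of the electron transfer flavoprotein. For Sdhb they were Uqcrc1 (0.978) of complex III, Mdh2 (0.975), the mitochondrial malate dehydrogenase, and Cox5b (0.975) of complex IV. For Sdhc they were Dhrs7b (0.939), Cyc1 (0.938), the cytochrome c1 of complex III, and Ndufv1 (0.934) of complex I. For Sdhd they were Ndufb6 (0.952) of complex I, Idh3a (0.951), a subunit of isocitrate dehydrogenase, and Cox7a2 (0.949) of complex IV. The mean of the 4 standardized subunits was most like Idh3a (0.952), Suclg1 (0.951), Cs (0.951), Dhrs7b (0.947) and Ndufa9 (0.945). Within groups the r of Sdha with Etfdh was 0.85 and that of Sdhb with Uqcrc1 0.94.

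**Figure D4:**
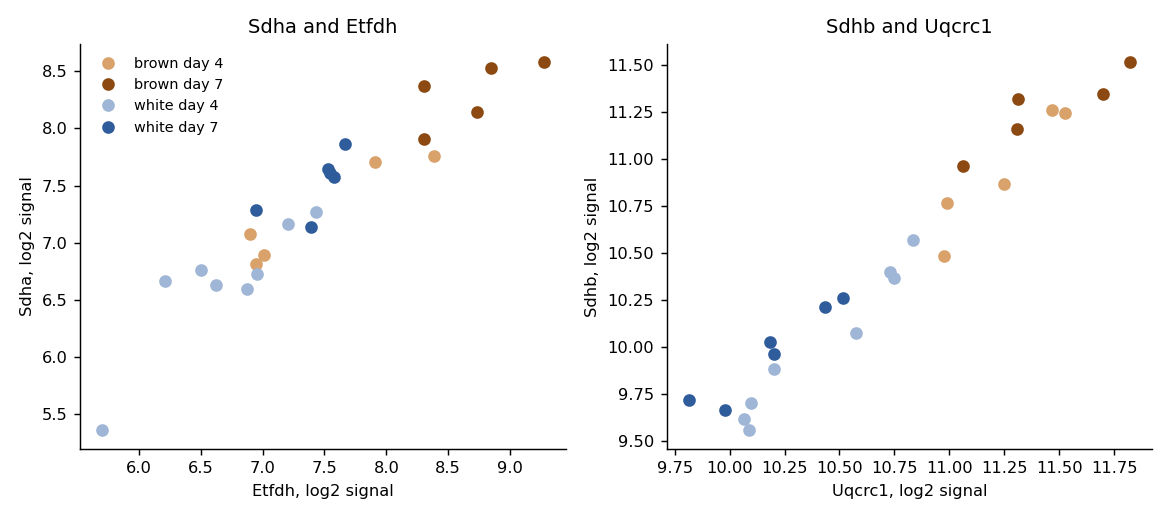
Log2 signal of Sdha against Etfdh and of Sdhb against Uqcrc1, 1 point per array, coloured by group. Pearson's r over the 24 arrays was 0.943 and 0.978, given as a description, since the arrays share scaling and cell type.

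The genes around the complex were read from 10 lists with 105 genes in all. Their calls that involve white day 7 moved when the Gapdh ratio, which largely follows that group, entered the fit. With the Gapdh ratio in the fit, by limma 0 of these 105 genes were called for white day 7 against day 4 (19 without it; 10 with an unadjusted p under 0.05). For brown against white at day 7, 17 were called (71 without it; 59 with an unadjusted p under 0.05). At day 4 it was 58 (60 without it), and for the days in brown cells 18 (17 without it). Calls fell over the whole array too. Of the 8397 probe sets tested, 37 were called with the covariate for white day 7 against day 4 (1595 without it). For brown against white at day 7 it was 274 (2112 without it), in either direction. Over all 6281 genes without the covariate, 13.2% were called higher in brown cells at day 7 and 11.7% at day 4, and 6.46% were called higher at day 7 against day 4 in brown cells and 9.03% in white cells. In the same order, 12.3%, 12.8%, 6.5% and 10.5% were called lower. For brown against white at day 7 the standard errors were larger with the covariate, as for Cs (0.26, against 0.157 without it). List medians moved both ways, from 0.65 to 0.89 for complex III with cytochrome c and from 0.56 to 0.35 for assembly and cofactor genes. List counts are without the covariate unless it is named. Those with it are to be read beside the 274 of 8397 probe sets called for brown against white at day 7. For white day 7 against day 4 they are to be read beside the 37.

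Genes that assemble the complex or supply its cofactors were mostly higher in brown cells. Of 9 tested, 6 were called higher in brown than in white cells at day 7 and 0 lower, against 13.2% and 12.3% of all genes. The median log2 difference was 0.56. With the Gapdh covariate 1 was called, which was Isca2 (1.30 ± 0.295; limma adjusted p = 0.0123). Rfk, which makes the flavin mononucleotide that precedes FAD, was at 1.23 ± 0.146 (limma adjusted p = 6.5e-07), and Isca2, an iron-sulfur assembly factor, at 1.18 ± 0.168. Sdhaf1 and Sdhaf2, the assembly factors of the iron-sulfur and the flavin subunit, did not pass, at 0.16 (adjusted p = 0.513) and 0.23 (adjusted p = 0.229). The Sdhaf1 probe set may also bind other transcripts, by its suffix. At day 4, 4 of 9 were called higher in brown cells, against 11.7% of all genes, among them the chaperone Hspa9 at 1.11 ± 0.185. Between the days, Isca1 rose by 0.71 ± 0.153 in brown cells and Hspa9 by 0.76 ± 0.175 in white cells, while Rfk fell by 0.62 ± 0.130 in white cells, and no other of the 9 was called. With the covariate the white changes of Hspa9 and Rfk were 0.47 (adjusted p = 0.554) and -0.10 (adjusted p = 0.894).

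Genes that supply or remove succinate were likewise mostly higher in brown cells. At day 7, 7 of 8 were called higher in brown cells, against 13.2% of all genes, with a median of 0.77. They included Suclg1 (1.01 ± 0.189), a subunit of succinyl-CoA ligase, which makes succinate, and Fh1 (0.77 ± 0.146), fumarase, which uses the fumarate that the complex releases. The list of other TCA cycle enzymes, which contains 7 of these 8, had 12 of 12 called higher, with a median of 0.85. With the Gapdh covariate the counts were 2 of 8 and 6 of 12, with medians of 0.92 and 1.03. Its largest differences were those of Idh2 (1.15 ± 0.138) and Idh3a (1.14 ± 0.149), isocitrate dehydrogenases. From day 4 to day 7 in brown cells, 3 of the 12 TCA enzymes were called higher, which were Sucla2 (1.08 ± 0.239; limma adjusted p = 0.00331), Dld (0.86 ± 0.241) and Fh1 (0.46 ± 0.152). In white cells Sucla2 (0.90 ± 0.204) and Dld (0.77 ± 0.206) rose, and Idh2 fell by 0.52 ± 0.123. With the covariate these white changes were 0.81 (adjusted p = 0.334), 0.53 (adjusted p = 0.58) and -0.51 (adjusted p = 0.305). The share called higher over all genes was 6.46% in brown and 9.03% in white cells.

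Other enzymes that hand electrons to ubiquinone were mixed. Etfdh rose by 1.26 ± 0.289 in brown cells (limma adjusted p = 0.00441) and by 0.75 ± 0.247 in white cells (adjusted p = 0.0332), and Etfa by 1.04 ± 0.211 and 0.72 ± 0.180. These were the 2 of 6 called in each cell type, against 6.46% and 9.03% of all genes. With the covariate the white changes were 0.45 (adjusted p = 0.742) for Etfdh and 0.46 (adjusted p = 0.586) for Etfa. In brown against white cells at day 7, Etfdh (1.25 ± 0.277), Etfb (1.0 ± 0.209) and Etfa (0.89 ± 0.202) were higher and Gpd2, the mitochondrial glycerol phosphate dehydrogenase, was lower (-0.98 ± 0.346), and with the covariate 0 of the 6 were called by limma. At day 4, Etfdh (0.74 ± 0.261), Etfb (0.63 ± 0.196) and Etfa (0.57 ± 0.191) were higher in brown cells, against 11.7% of all genes, and Sqor, which feeds electrons from sulfide, was lower (-1.0 ± 0.202). Of 6 ubiquinone synthesis genes, 5 were called higher in brown cells at day 7, led by Coq5 at 1.07 ± 0.223, and 3 at day 4, led by Coq7 at 0.81 ± 0.148, against 13.2% and 11.7% of all genes. With the covariate 0 were called at day 7 and 3 at day 4. Between the days, 0 of the 6 were called in brown cells, and Coq4 fell by 0.73 ± 0.210 in white cells (-0.94 with the covariate; limma adjusted p = 0.239).

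In the rest of the respiratory chain, brown cells at day 7 had 17 of 26 complex I genes called higher and 6 of 9 for complex III with cytochrome c. It was 6 of 11 for complex IV and 9 of 11 for complex V, with 0 lower in each list. Of all genes, 13.2% were called higher and 12.3% lower. With the Gapdh covariate the list counts called higher were 6 of 26, 1 of 9, 3 of 11 and 0 of 11. The medians without it were 0.61, 0.65, 0.63 and 0.56, against 1.04 for the 4 subunits of complex II. With it those of the 4 lists were 0.66, 0.89, 0.69 and 0.59. Ndufb8 of complex I (1.36 ± 0.192), Uqcrc1 (1.25 ± 0.172) and Cox7a1 of complex IV (3.88 ± 0.525) led their groups. For day 7 against day 4 in brown cells the counts called higher were 4 of 26, 3 of 9, 3 of 11 and 0 of 11, against 6.46% of all genes. Uqcrc2, a core subunit of complex III, rose by 1.05 ± 0.237 in brown and 1.0 ± 0.203 in white cells (0.41 with the covariate; limma adjusted p = 0.662). Among 14 genes of mitochondrial mass and its regulators, 5 were called higher and 1 lower in brown cells at day 7, against 13.2% and 12.3% of all genes. Their median was 0.43, and with the covariate 0 of the 14 were called by limma. The calls without it included Esrra, the oestrogen-related receptor alpha (0.81 ± 0.221), and Vdac2, an outer membrane channel, which was lower (-0.77 ± 0.180). Tomm40, an import channel, fell between the days in brown cells by 0.61 ± 0.150 and in white cells by 0.60 ± 0.128 (-0.58 with the covariate; adjusted p = 0.24).

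**Figure D5:**
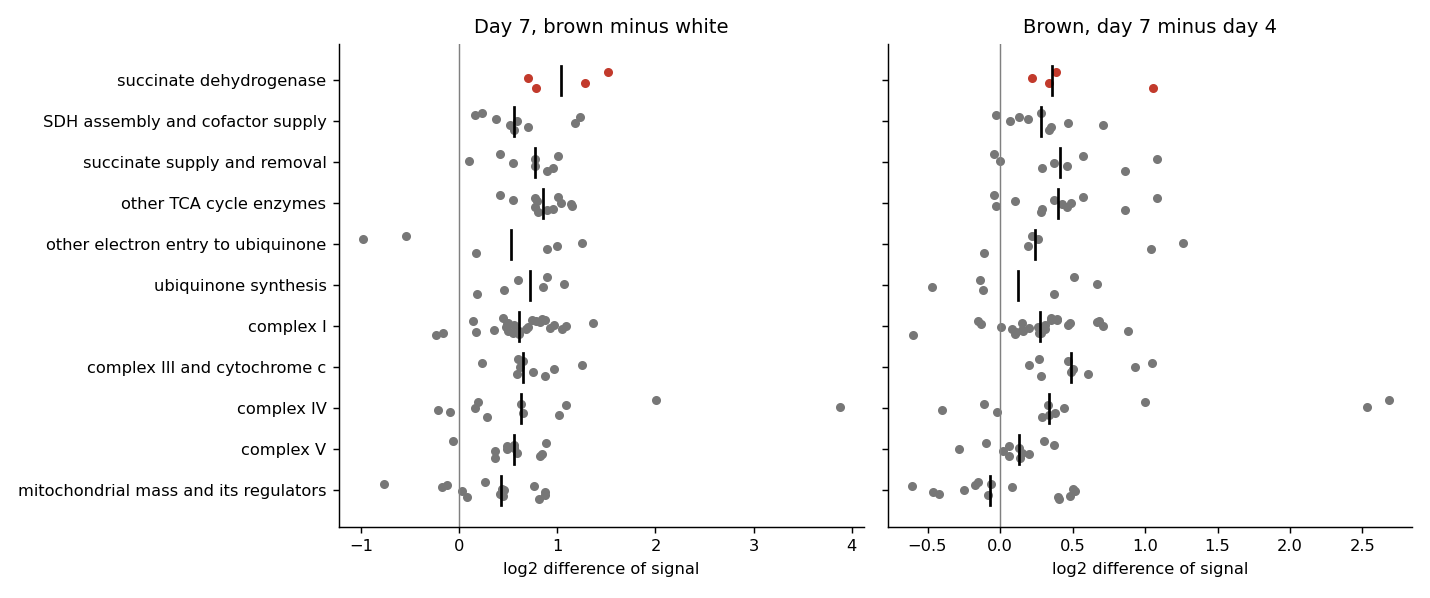
Log2 difference of signal for each tested gene (points) of succinate dehydrogenase and of 10 related gene lists, with the list median (line), for brown minus white at day 7 and for day 7 minus day 4 in brown cells. At day 7 the median of succinate dehydrogenase is 1.04 and those of the other lists run from 0.43 to 0.85.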

How the data were processed

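The deposited values are linear signal intensities for each probe set, which the authors produced with MAS5 (per the submitters' processing notes; version not given in the sources used here). MAS5 takes mismatch probes off, so low signals are unsteady. Every array was scaled to a 2% trimmed mean of 150. Signals below the 20th percentile of all signals (8.21) were raised to that floor before the log2 step. The 66 control probe sets were left out, and 8397 probe sets were tested, those that on 5 or more arrays exceeded the array's own 40th percentile. For list members, the probe set with the highest mean signal stood for the gene. The probe sets of Sucla2, Uqcrc2, Gpd2 and Hoxc9 carry the same suffix as that of Sdhaf1, so they may also bind other transcripts. Symbols are those of the platform annotation, some possibly outdated.

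Group means were fitted with limma 3.58.1 (lmFit, then eBayes with a trend on intensity) under R 4.3.3, with 20 residual degrees of freedom. Tests were two-sided, and p-values were adjusted by Benjamini-Hochberg over the 8397 probe sets of a contrast, with calls made under 0.05. An error after ± is the fit's standard error where SD is not stated. Signals of single arrays are linear and scaled. The code was tested on simulated data. Members, lists and tests were chosen with earlier results of these data known. Every member was named, with up to 4 called genes of largest change per list and contrast and the genes of highest correlation. Sdhaf1 and Sdhaf2 were named after their values were seen. Alternatives were another floor, filter or scaling, quantile normalization, a pseudocount, array weights, RNA integrity as a covariate, and arrays left out.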

Additional observations from a re-analysis of the deposited data

Results flagged for a closer look

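Of 16 sets of arrays (4 genes in 4 groups), 1 held an array far from the others. In white day 4 cells the Sdha signal of array 51 was 41.01, and the gap to the nearest array was 0.648 of the range of the log2 values in that group. Chance alone flags about 1 such set in 20. On the same array Sdhb had the highest signal of its group, 1522, and the summed signal of the adipocyte markers was the lowest, 2445.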

How the results depend on the processing

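Adjusted p-values follow limma. Without 1 array, the counts called between the days in brown cells ran from 672 (without brown day 7 array 8) to 1170, against 1012 with all arrays, and those for the difference of changes from 7 to 23, against 18. Sdha in brown against white ran from 0.42 to 0.71 at day 4, where it passed without brown day 4 array 10 (0.0421) or white day 4 array 33 (0.0397) or 34 (0.0334), and from 0.71 to 0.88 at day 7. Sdhc at day 4 ran from 0.42 to 0.62. Values near 0 in white cells changed sign, Sdhc from -0.036 to 0.13 and Sdhb from -0.11 to 0.032.

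With the Gapdh ratio as covariate, 37 probe sets were called for white day 7 against day 4 (1595 without it), 274 for brown against white at day 7 (2112) and 5 for the difference. Of the subunits, 0 were called in the first, 2 in the second and all 4 in brown against white at day 4. Sdha was 0.40 in white cells, and in brown against white 0.69 at day 4, where it passed (adjusted p = 0.0331), and 1.33 at day 7. Sdhc was 0.85 at day 7 and -0.088 in white cells, and Sdhb 0.11 there. With the Actb ratio instead, chosen after seeing the data, the counts were 6, 410 and 8, with 0 subunits called in white cells. Sdha was 0.35 in white cells and 0.68 at day 4 (adjusted p = 0.0333), Sdhc 0.62 at day 7 (adjusted p = 0.159) and Sdhb 0.33 in white cells.

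The runs of array numbers as a block, also chosen after seeing the data, gave 1638 calls in brown cells, 3 of them subunits (Sdha, Sdhb at 0.33 and Sdhd at 0.39), 61 for the difference, and Sdhb at 0.10 in white cells. Array weights gave 1665 calls in brown cells, 45 for the difference and 0.031 for Sdhb in white cells. Without white day 4 arrays 45 and 51, 1046 probe sets were called in white cells and Sdhb was 0.10. For the difference, a floor at the 40th percentile gave 35, no floor 10, no filter 10, a stricter filter 9, no intensity trend 11 and median scaling 6. Sdha at day 4 passed with quantile normalization (0.61; adjusted p = 0.0392) and with median scaling (0.69; adjusted p = 0.0214), and Sdhc in white cells was -0.026 with median scaling. Median scaling gave 1087 higher and 788 lower calls in brown against white at day 4, against 908 and 1025, and 4 and 2 for the difference, against 14 and 4. The cause of these moves was not tested.

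The mean of a gene's probe sets was not run, since each subunit has 1. No paired analysis was possible by replicate number, because the groups share none. The block of array runs was the blocked comparison of the days. Few arrays per group, lower RNA integrity at white day 7 and unstated sources of the arrays limit these values.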
